A study of Homo sapiens with 18 samples.

Results

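The genes described here are FOXA1, HOXB13, GATA2, GRHL2, SPDEF and SNAI2, 6 DNA-binding transcription factors that surround the androgen receptor in prostate epithelium. They were chosen by name, with earlier results of these data known, as 6 of the 60649 genes in the count table. All 6 were among the 15390 genes that passed a filter on low counts. Levels are CPM, counts relative to the library total, scaled between libraries by trimmed mean of M values (TMM). RNA was sequenced from LNCaP, an androgen-responsive line derived from a prostate adenocarcinoma, in 6 groups of 3 libraries, described in the labels as biological triplicates. The labels give no replicate numbers, so replicates 1 to 3 of a group are named in accession order, which was not used to pair libraries across groups. The groups were UPF1 siRNA with R1881, UPF1 siRNA with vehicle, RCOR1 siRNA with R1881, RCOR1 siRNA with vehicle, control siRNA with R1881 and control siRNA with vehicle. Every group was transfected and then kept in androgen-deprived medium. R1881, a synthetic androgen, was given at 5 nM from 48 h after transfection, ethanol served as vehicle, and RNA was taken 48 h later. Each target was depleted with 1 SmartPool, a mixture of siRNAs, so that effects of the target and of the pool cannot be told apart, and LNCaP was the only cell line.

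As background, the androgen receptor reaches most of its enhancers in prostate cells together with lineage factors. FOXA1, a forkhead pioneer factor, opens chromatin for the receptor, HOXB13 is a homeobox factor of the prostate that binds beside it, and GATA2 is a zinc finger factor that acts at the same enhancers and at the receptor's own gene. GRHL2, a grainyhead-like factor, maintains epithelial junction genes. SPDEF is an ETS factor of secretory epithelium, and SNAI2 (Slug) is a zinc finger repressor known for its part in epithelial-mesenchymal transition and for repressing the E-cadherin gene CDH1. UPF1 is a helicase needed for nonsense-mediated decay of mRNA, and RCOR1 (CoREST) is a scaffold of a chromatin repressor complex that contains the demethylase KDM1A.

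The libraries held 10299607 to 17338235 counts. UPF1 averaged 26.3 CPM with its siRNA and 149 CPM with control siRNA under R1881, and 22.8 against 134 CPM in vehicle. RCOR1 averaged 12.5 CPM with its siRNA and 79.7 CPM with control siRNA under R1881, and 12.8 against 99.6 CPM in vehicle. All 6 luminal LNCaP markers (KRT8, KRT18, EPCAM, FOLH1, TMPRSS2 and KLK3) were expressed in every group. The basal markers TP63 and DSG3, the neuroendocrine markers CHGA, INSM1 and NEUROD1, and the T cell, endothelial and blood markers CD3E, CDH5 and HBB had no count in any library. Replicates 1 and 2 of UPF1 siRNA with R1881 stood apart in the nuclear RNA MALAT1, with 3761 and 4588 CPM against 10830 to 35090 CPM in the other 16 libraries. Values without these 2 libraries are also given for the comparisons that use them. They rest on 1 remaining library of that group, which the fit assumes to vary like the other groups.

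The promoters of SPDEF and GATA2 are shown because SPDEF was the well expressed member with the largest rise under R1881 and GATA2 the member that fell furthest. Each sequence is the 250 bases upstream of the annotated start, read 5′ to 3′ on the gene's strand, from RefSeq (GRCh38.p14). Capitals mark CG dinucleotides, the sites of DNA methylation in mammals.
SPDEF, chr6:34556330-34556579, minus strand: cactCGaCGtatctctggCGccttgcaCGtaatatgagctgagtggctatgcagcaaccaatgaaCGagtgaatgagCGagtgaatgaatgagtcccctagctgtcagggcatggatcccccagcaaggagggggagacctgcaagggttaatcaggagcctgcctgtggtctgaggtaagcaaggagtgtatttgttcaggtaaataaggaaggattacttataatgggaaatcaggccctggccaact
GATA2, outer start, chr3:128493202-128493451, minus strand: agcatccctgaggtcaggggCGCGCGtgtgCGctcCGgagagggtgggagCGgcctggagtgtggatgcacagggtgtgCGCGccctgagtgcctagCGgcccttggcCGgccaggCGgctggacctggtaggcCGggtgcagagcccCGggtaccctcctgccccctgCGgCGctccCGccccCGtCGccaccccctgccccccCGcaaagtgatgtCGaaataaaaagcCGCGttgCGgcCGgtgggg
The SPDEF window held 6 CG dinucleotides at 50.8% GC and the GATA2 window 24 at 72.8% GC, while the median of 35116 human promoters of the same length was 11 at 58.0% GC. Of all promoters, 41.1% had at most as many CG as SPDEF and 23.7% at least as many as GATA2. CG were counted after a search, on both strands, for 7 motifs of the factors discussed here had found none in either window. These motifs were the full palindromic androgen response element (in 0.00285% of all promoters), its single arm AGAACA, which the palindrome contains (12.4%), TGTTTAC for forkhead factors (2.98%), AGATAA for GATA factors (9.17%), CCAATAAA for HOXB13 (0.863%), AACCGGTT for grainyhead factors (0.117%) and the E-box CAGGTG for SNAI2 (17.5%). At the inner start of GATA2, the window chr3:128488531-128488780 held 18 CG dinucleotides and 1 match, the E-box CAGGTG. A window without a match says only that these letters are not in it. Promoter entries were found for 3 of the 6 members, and that of FOXA1 was not used because it ran into exons of FOXA1.

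In GENCODE v29 on GRCh38, whose release may differ from that used for counting, FOXA1 lies at chr14:37589984-37596059 on the minus strand and HOXB13 at chr17:48724763-48729178 on the minus strand. GATA2 lies at chr3:128479427-128493185 and SPDEF at chr6:34537802-34556333, both on the minus strand. GRHL2 lies at chr8:101492432-101669726 on the plus strand and SNAI2 at chr8:48917604-48921740 on the minus strand. Whether counting used strand is not given in the sources used here, and 3 members have a counted gene on the opposite strand. TTC6 shares exon bases with FOXA1 and held 390 to 1439 counts per library. AP001207.3 shares exon bases with GRHL2 and held 26 to 86 counts. GATA2-AS1 overlaps GATA2 without sharing exon bases and held 964 to 2883 counts. Reads from these overlaps cannot be told apart here.

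Per kilobase of exon, the order of the members' levels was not the same with and without androgen. Length was the union of all exons of a gene in GENCODE v29, which may differ from that of the transcripts expressed. The order between genes was not tested. With UPF1 siRNA and R1881, FOXA1 was at 130.5 CPM per kb, SPDEF at 105, HOXB13 at 84.6, GRHL2 at 66.7, GATA2 at 43.5 and SNAI2 at 2.72. With control siRNA and R1881, SPDEF was at 165 CPM per kb, FOXA1 at 137, HOXB13 at 118, GRHL2 at 83.3, GATA2 at 45.5 and SNAI2 at 2.25. In control siRNA with vehicle, HOXB13 was at 139 CPM per kb, FOXA1 at 117, GATA2 at 80.4, GRHL2 at 49.5, SPDEF at 27.9 and SNAI2 at 0.0897. SPDEF thus had the highest level per kb in the control arm under R1881 and the fifth highest in vehicle, and SNAI2 had the lowest in each. Without division by length, SPDEF in the control arm under R1881 was at 316 CPM, below FOXA1 (547), GRHL2 (504.5) and HOXB13 (409).

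Members also differed in how far their group means lay apart. The highest group mean was 1.22 times the lowest for FOXA1, 1.65 times for HOXB13, 1.69 times for GRHL2, 1.85 times for GATA2, 9.23 times for SPDEF and 55.9 times for SNAI2. FOXA1 was the steadiest of the 6, and SPDEF and SNAI2 were the members with a wide range.

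Ordered by group mean, SPDEF was highest in control siRNA with R1881, then in UPF1 and RCOR1 siRNA with R1881, then in control, RCOR1 and UPF1 siRNA with vehicle. Neighbours overlapped only between UPF1 and RCOR1 siRNA, in each treatment. SNAI2 had another order, with RCOR1 siRNA above UPF1 and control siRNA under R1881, and RCOR1, control and UPF1 siRNA in vehicle, where UPF1 and control siRNA overlapped in both treatments. GRHL2 ran from control to RCOR1 to UPF1 siRNA under R1881 without overlap, above 3 overlapping vehicle groups. GATA2 ran the other way, with control and RCOR1 siRNA in vehicle overlapping at the top, UPF1 siRNA in vehicle below them, and 3 overlapping R1881 groups at the bottom. HOXB13 had 4 groups that overlapped their neighbours, from control siRNA with vehicle down to UPF1 siRNA with vehicle, above RCOR1 and UPF1 siRNA with R1881, which also overlapped. For FOXA1, control and then UPF1 siRNA with R1881 stood above the remaining 4 groups, whose neighbours overlapped.

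**Figure D1:**
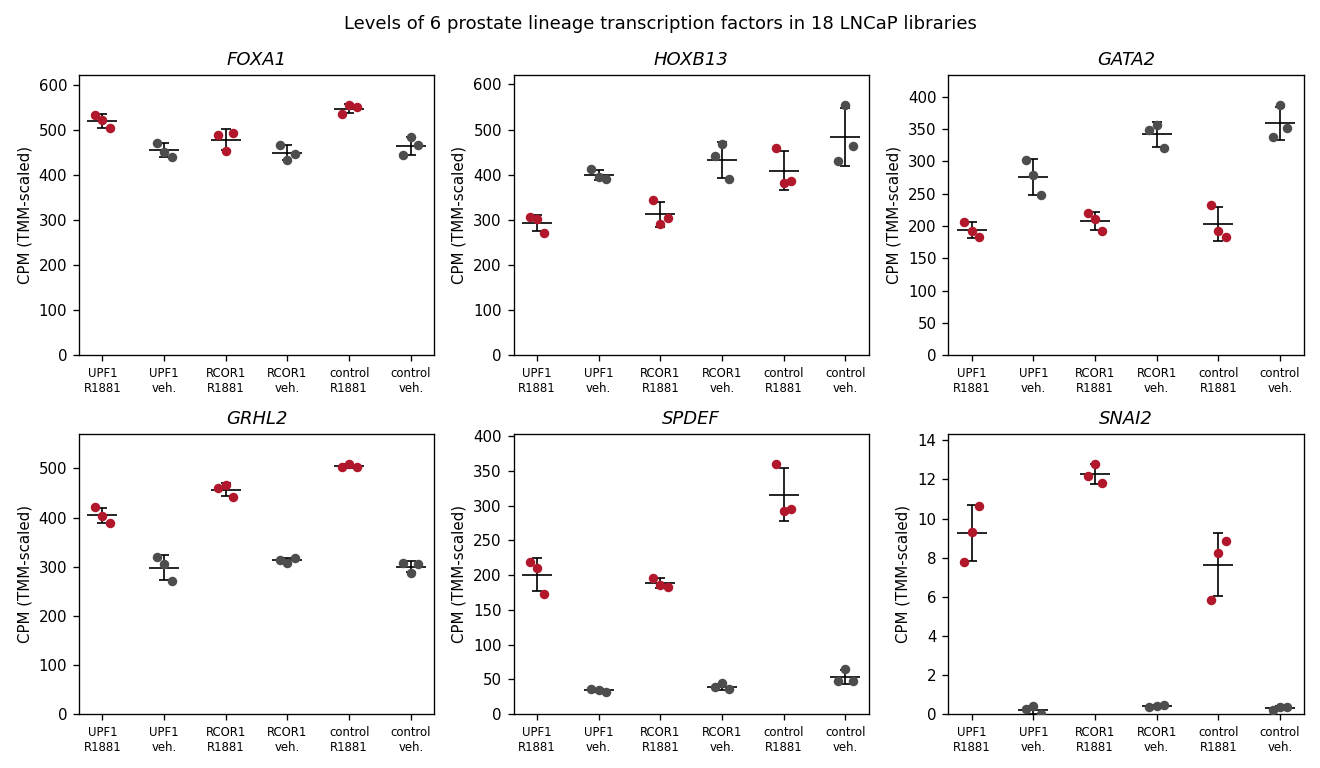
Level of each factor (CPM, TMM-scaled, linear axis from 0) in the 18 libraries, by siRNA and treatment; points are libraries, and bars are the mean and SD of 3. The R1881 libraries (red) of SPDEF and SNAI2 lie above all vehicle libraries (grey), those of GATA2 lie below all vehicle libraries, and FOXA1 stays between 433 and 555 CPM.

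R1881 divided the 6 factors. SPDEF, SNAI2 and GRHL2 rose in all 3 siRNA arms, and GATA2 fell in all 3. HOXB13 lay lower under R1881 in all 3 arms but passed the test only in the 2 arms with a targeting siRNA. FOXA1 lay slightly higher in all 3 and passed in 2 arms, those with UPF1 and control siRNA. The test was edgeR's quasi-likelihood F test over all genes with Benjamini-Hochberg adjustment, and a gene was called at an adjusted p below 0.05. With UPF1 siRNA, 6 of 6 members were called (4 higher, 2 lower), where 41.6% of all tested genes were called. With RCOR1 siRNA, 5 of 6 were called (3 higher, 2 lower), against 31.2% of all tested genes. With control siRNA, 5 of 6 were called (4 higher, 1 lower), against 37.7% of all tested genes. These counts include SNAI2, which passed the filter on low counts only through its R1881 libraries, so its calls add nothing to them. The members were also chosen with earlier results of these data known, so the counts are not read as a result about the set. CPM are shares of a library, so a change in RNA per cell and a change in the number of cells that express a gene cannot be told apart.

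**Figure D2:**
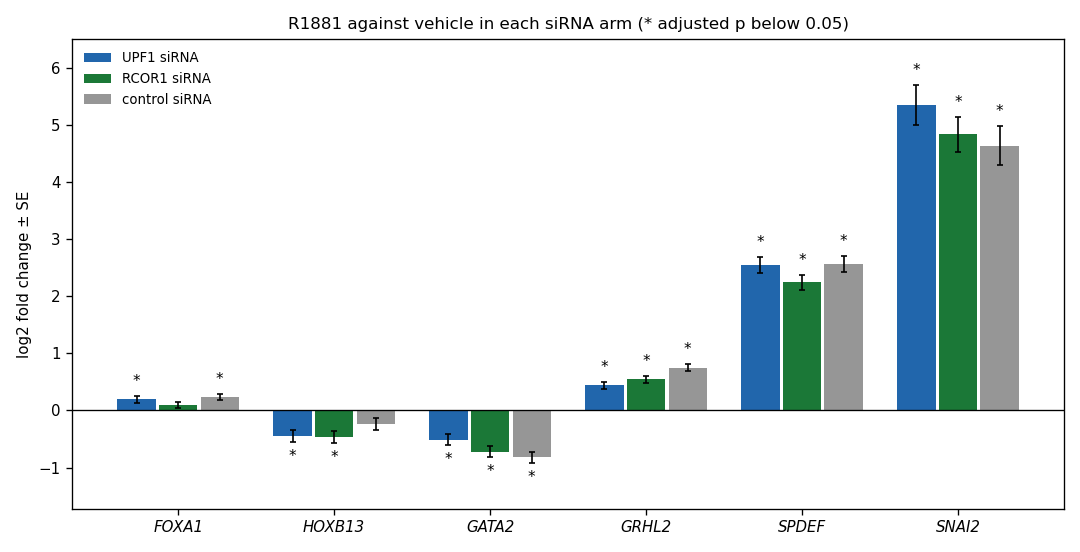
Log2 fold change (± SE) of each factor for R1881 against vehicle, with UPF1 siRNA (blue), RCOR1 siRNA (green) and control siRNA (grey); asterisks mark an edgeR adjusted p below 0.05. SPDEF and SNAI2 rose by more than 2 on the log2 scale in every arm, GRHL2 by less than 1, and GATA2 fell in every arm.

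SPDEF was at 218, 210.5 and 173 CPM in the 3 UPF1 siRNA libraries with R1881, against 36.8, 34.1 and 31.8 CPM in those with vehicle. With RCOR1 siRNA it was at 196.5, 186.5 and 183 CPM under R1881, against 38.8, 44.4 and 36.1 CPM in vehicle. With control siRNA it was at 360, 292 and 296 CPM under R1881, against 47.8, 64.8 and 47.5 CPM in vehicle. In each arm, every R1881 library lay above every vehicle library. The log2 fold change was 2.55 ± 0.14 (SE) with UPF1 siRNA (edgeR adjusted p = 4.96e-10) and 2.25 ± 0.13 with RCOR1 siRNA (edgeR adjusted p = 2.13e-09). It was 2.57 ± 0.14 with control siRNA, a 5.92-fold rise with a 95% interval of 4.85 to 7.23 (edgeR adjusted p = 3.43e-10). Among the 15390 tested genes, SPDEF ranked 359th by size of change in the control arm.

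SNAI2 was close to the limit of detection without androgen. Its counts were 134, 133 and 125 in the UPF1 siRNA libraries with R1881, against 4, 5 and 0 with vehicle. With RCOR1 siRNA they were 166, 146 and 145 under R1881, against 6, 6 and 6 in vehicle. With control siRNA they were 81, 113 and 98 under R1881, against 3, 5 and 4 in vehicle. The groups did not overlap in any arm, and even the R1881 libraries stayed at 5.84 to 12.8 CPM, the lowest levels under R1881 among the 6 members. Summed over 3 libraries, the share under R1881 was 6.78 CPM without TMM scaling in the control arm (95% Poisson interval 6.03 to 7.61), against 0.315 CPM in vehicle (0.163 to 0.55), intervals that cover counting error only. The log2 fold change was 5.35 ± 0.35 with UPF1 siRNA and 4.83 ± 0.31 with RCOR1 siRNA (edgeR adjusted p = 5.58e-09 and 4.35e-09). It was 4.64 ± 0.34 with control siRNA (24.9-fold, 95% interval 15.0 to 41.1, edgeR adjusted p = 2.1e-08). SNAI2 passed the filter on low counts only through its R1881 libraries, so being tested already required a difference, and its calls add nothing to the counts of members above.

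SNAI2 also marks basal epithelial cells. Of the 5 basal markers, 4 had a mean below 1 CPM, with TP63 and DSG3 at 0. The summed level of the list lay between 5.87 and 7.14 CPM with UPF1 siRNA and R1881, against 0.794 to 0.987 CPM in vehicle. It lay between 3.07 and 4.77 CPM with RCOR1 siRNA and R1881 against 0.908 to 1.53 CPM in vehicle, and between 2.44 and 2.96 CPM with control siRNA and R1881 against 0.642 to 0.832 CPM in vehicle. Most of this sum was KRT14, and its part in the SNAI2 result was not tested.

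GRHL2 rose less steeply and with little spread. It was at 421, 402 and 389 CPM under R1881 with UPF1 siRNA, against 319, 305 and 270.5 CPM in vehicle. With RCOR1 siRNA it was at 461, 467 and 442 CPM under R1881, against 313, 307.5 and 318 CPM in vehicle. With control siRNA it was at 502, 509.6 and 502 CPM under R1881, against 308, 287 and 305 CPM in vehicle. No R1881 library overlapped a vehicle library of its arm, and the vehicle levels of the 3 arms overlapped each other. The log2 fold changes were 0.44 ± 0.06 with UPF1 siRNA, 0.55 ± 0.06 with RCOR1 siRNA and 0.75 ± 0.06 with control siRNA (edgeR adjusted p = 4.15e-05, 5.49e-06 and 1.05e-07). With library size as the only scaling the RCOR1 arm value was 0.35, still called.

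GATA2 was the member that fell in all 3 arms. It was at 206, 193 and 182.5 CPM under R1881 with UPF1 siRNA, against 303, 279 and 247 CPM in vehicle. With RCOR1 siRNA it was at 219.6, 210.2 and 193 CPM under R1881, against 349, 356 and 320.1 CPM in vehicle. With control siRNA it was at 233, 193 and 183 CPM under R1881, against 337, 387 and 351 CPM in vehicle. Again no library of one treatment reached the range of the other within an arm. The log2 fold changes were -0.51 ± 0.10 with UPF1 siRNA, -0.72 ± 0.10 with RCOR1 siRNA and -0.82 ± 0.10 with control siRNA (edgeR adjusted p = 0.000664, 3.38e-05 and 5.88e-06). In the control arm this left GATA2 at 56.5% of its vehicle level.

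HOXB13 was at 307, 301 and 272 CPM under R1881 with UPF1 siRNA, against 413, 394 and 392 CPM in vehicle. With RCOR1 siRNA it was at 344, 290.5 and 304 CPM under R1881, against 442, 468 and 390 CPM in vehicle. These groups did not overlap, and HOXB13 fell by 0.45 ± 0.10 and 0.47 ± 0.10 on the log2 scale in the UPF1 and RCOR1 arms (edgeR adjusted p = 0.00268 and 0.00229). In the control arm it was at 458, 382 and 386 CPM under R1881, against 432, 555 and 464 CPM in vehicle. Here the groups overlapped, and the log2 fold change of -0.24 ± 0.10 was not called (95% interval -0.46 to -0.02, edgeR adjusted p = 0.0775). That result changed with the libraries used: without replicate 1 of control siRNA with R1881 the value was -0.38 (edgeR adjusted p = 0.0158), and without replicate 1 of control siRNA with vehicle it was -0.33 (edgeR adjusted p = 0.0323). It also moved the other way, and over all single libraries left out it lay between -0.38 and -0.14.

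FOXA1 changed least. It was at 532, 523 and 504 CPM under R1881 with UPF1 siRNA, against 471, 451.5 and 441 CPM in vehicle. With RCOR1 siRNA it was at 489, 453 and 493.5 CPM under R1881, against 466, 433 and 447 CPM in vehicle. With control siRNA it was at 536, 555 and 550.3 CPM under R1881, against 443.5, 484 and 466 CPM in vehicle. Only in the RCOR1 arm did the groups overlap. The log2 fold changes were 0.19 ± 0.06 with UPF1 siRNA, 0.09 ± 0.06 with RCOR1 siRNA and 0.24 ± 0.06 with control siRNA (edgeR adjusted p = 0.0129, 0.252 and 0.00354). The 95% interval in the RCOR1 arm was -0.03 to 0.21. The small calls depended on scaling: with library size as the only scaling the UPF1 arm value was 0.10 and the control arm value -0.0076, and with upper-quartile scaling they were 0.16 and 0.09, none of them called. The median over all tested genes itself was at -0.10 in the UPF1 arm and -0.22 in the control arm with library size as the only scaling, and at -0.045 and -0.13 with upper-quartile scaling, so FOXA1 lay above that median under each. The UPF1 arm call was lost without replicate 1 of UPF1 siRNA with R1881 or replicate 3 of UPF1 siRNA with vehicle. The control arm call was also lost without replicate 2 of control siRNA with R1881, at 0.19 (edgeR adjusted p = 0.0661).

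With the 2 libraries that stood apart left out, the log2 fold changes for R1881 in the UPF1 arm were 2.31 for SPDEF, 5.53 for SNAI2, 0.35 for GRHL2, -0.63 for GATA2, -0.58 for HOXB13 and 0.12 for FOXA1. All 6 kept their direction with the 1 library that remained.

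With UPF1 siRNA, SPDEF and HOXB13 were lower in both treatments, GATA2 in vehicle and GRHL2 under R1881. Under R1881, 3 of 6 members were called, all lower, against 33.3% of all tested genes. In vehicle, 3 of 6 were called, all lower, against 34.6% of all tested genes. With only 6 members, a count of 3 is near these shares and is not read as a result about the members as a set. The UPF1 and RCOR1 comparisons use the same control libraries.

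**Figure D3:**
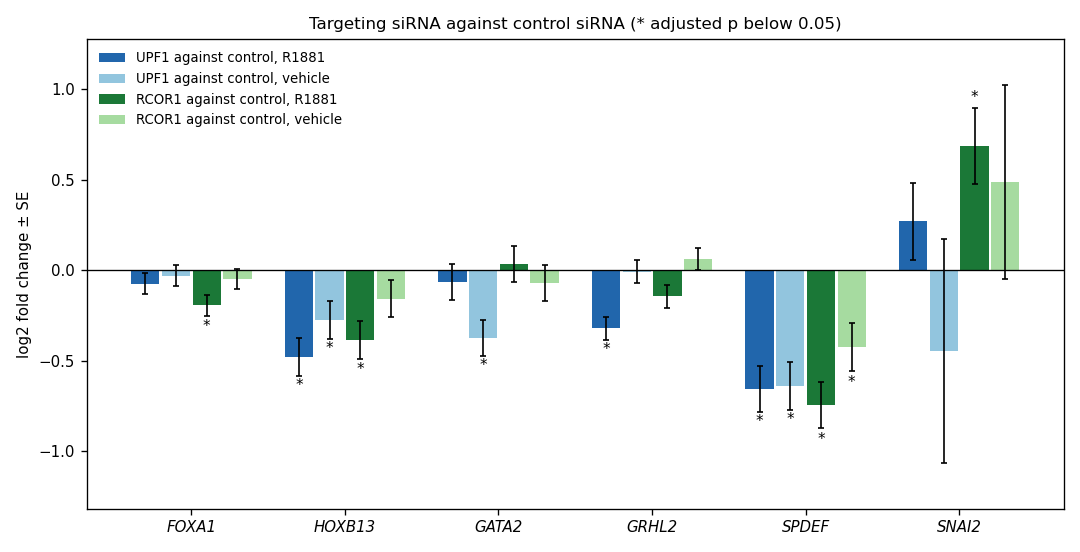
Log2 fold change (± SE) of each factor with UPF1 siRNA (blue) or RCOR1 siRNA (green) against control siRNA, under R1881 (dark) and in vehicle (light); asterisks mark an edgeR adjusted p below 0.05. SPDEF lies below 0 in all 4 comparisons, and the wide SNAI2 bars in vehicle come from 9 to 18 counts per group.

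The SPDEF libraries with UPF1 siRNA and R1881, at 173 to 218 CPM, lay below the control siRNA libraries with R1881, at 292 to 360 CPM. In vehicle they were at 31.8 to 36.8 CPM with UPF1 siRNA and 47.5 to 64.8 CPM with control siRNA. Neither pair of groups overlapped. SPDEF fell by 0.65 ± 0.13 on the log2 scale under R1881 and by 0.64 ± 0.13 in vehicle, to 63.5% and 64.2% of the control siRNA level (edgeR adjusted p = 0.00111 and 0.00126). With 1 library left, after replicates 1 and 2 of UPF1 siRNA with R1881 were left out, the value under R1881 was -0.92. The library left was the lowest of its group for SPDEF.

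HOXB13 averaged 293 ± 18.6 CPM with UPF1 siRNA and 409 ± 43.1 CPM with control siRNA under R1881 (SD, n = 3 each). The log2 fold change was -0.48 ± 0.10 (edgeR adjusted p = 0.00229), and -0.64 without the 2 libraries that stood apart. In vehicle HOXB13 averaged 399.5 ± 11.5 CPM with UPF1 siRNA and 483 ± 63.9 CPM with control siRNA, with no overlap between the groups. Its value of -0.27 ± 0.10 was called by a narrow margin (edgeR adjusted p = 0.0496). Without replicate 2 of control siRNA with vehicle, the highest library, it was -0.17 (edgeR adjusted p = 0.249), and DESeq2 also did not call it (adjusted p = 0.0685). It was likewise lost without replicate 3 of control siRNA with vehicle or any 1 of the UPF1 siRNA libraries with vehicle.

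GATA2 was at 303, 279 and 247 CPM with UPF1 siRNA in vehicle, below all 3 control siRNA libraries at 337 to 387 CPM. The log2 fold change was -0.38 ± 0.10 (edgeR adjusted p = 0.00734). Under R1881 GATA2 averaged 194 ± 11.99 CPM with UPF1 siRNA and 203 ± 26.4 CPM with control siRNA, which overlapped, and the log2 fold change was -0.06 (95% interval -0.27 to 0.15, edgeR adjusted p = 0.653). GRHL2 showed the other arrangement. Under R1881 it averaged 404 ± 16.0 CPM with UPF1 siRNA and 504.5 ± 4.38 CPM with control siRNA, which is -0.32 ± 0.06 in log2 (edgeR adjusted p = 0.00117). With library size as the only scaling this was -0.20 (edgeR adjusted p = 0.0717), where the median of all genes was at 0.12. Without the 2 libraries that stood apart the value was -0.43 for GRHL2 and -0.21 for GATA2 under R1881. In vehicle GRHL2 averaged 298 ± 25.1 CPM with UPF1 siRNA and 299.8 ± 11.3 CPM with control siRNA, and the log2 fold change was -0.0077 (95% interval -0.14 to 0.13).

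FOXA1 and SNAI2 passed the test in neither treatment. For FOXA1 the log2 fold changes with UPF1 siRNA were -0.07 under R1881 (95% interval -0.20 to 0.05) and -0.03 in vehicle (-0.15 to 0.09). SNAI2 averaged 9.24 ± 1.43 CPM with UPF1 siRNA and 7.65 ± 1.597 CPM with control siRNA under R1881, and the groups overlapped (log2 fold change 0.27, 95% interval -0.18 to 0.72). Without the 2 libraries that stood apart the values under R1881 were -0.17 for FOXA1 and 0.43 for SNAI2. The vehicle counts of SNAI2, 9 in 3 libraries with UPF1 siRNA and 12 with control siRNA, leave an interval of -1.76 to 0.87.

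Markers of other cell types moved with UPF1 siRNA. The summed neuroendocrine list was at 24.0 to 25.8 CPM with UPF1 siRNA and 12.5 to 14.0 CPM with control siRNA under R1881, and 24.5 to 28.5 against 20.2 to 24.5 CPM in vehicle. Of its 7 genes 3 were at 0, and the sum was nearly all SYP and ENO2. With UPF1 siRNA, SYP was higher by 1.98 under R1881 and 2.24 in vehicle on the log2 scale (edgeR adjusted p = 8.07e-08 and 3.19e-08), while ENO2 was at -0.27 and -0.34 (edgeR adjusted p = 0.127 and 0.0422). The immune, endothelial and blood list summed to 13.9 to 16.2 CPM with UPF1 siRNA and 4.31 to 5.84 CPM with control siRNA under R1881, and 25.8 to 27.3 against 10.4 to 14.5 CPM in vehicle, nearly all of it VWF. With RCOR1 siRNA the neuroendocrine sum was 11.1 to 12.1 CPM under R1881 and 20.2 to 24.8 CPM in vehicle, and the immune, endothelial and blood sum 5.96 to 6.89 CPM and 6.51 to 9.22 CPM. The part of these genes in the siRNA results was not tested.

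With RCOR1 siRNA, SPDEF, HOXB13 and, by a small amount, FOXA1 were lower under R1881 and SNAI2 was higher, and in vehicle only SPDEF passed the test. Under R1881, 4 of 6 members were called (1 higher, 3 lower), against 12.4% of all tested genes. In vehicle, 1 of 6 was called, against 11.5% of all tested genes. As the members were chosen with earlier results known, these counts are not read as a result about the set. In the R1881 comparison the SPDEF call was the one that held when any 1 library was left out.

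SPDEF was at 196.5, 186.5 and 183 CPM with RCOR1 siRNA and R1881, each below the lowest control siRNA library with R1881 at 292 CPM. It fell by 0.74 ± 0.13 on the log2 scale, to 59.7% of the control siRNA level (edgeR adjusted p = 0.00123). In vehicle it averaged 39.8 ± 4.25 CPM with RCOR1 siRNA and 53.4 ± 9.90 CPM with control siRNA. That value of -0.42 ± 0.13 was called narrowly (edgeR adjusted p = 0.0465). It was lost by DESeq2 (adjusted p = 0.0684), and without replicate 2 of control siRNA with vehicle it was -0.26 (edgeR adjusted p = 0.211); it was also lost without replicate 1 or 3 of RCOR1 siRNA with vehicle.

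SNAI2 averaged 12.3 ± 0.506 CPM with RCOR1 siRNA and 7.65 ± 1.597 CPM with control siRNA under R1881, and no library overlapped. The log2 fold change was 0.68 ± 0.21, a 1.61-fold rise (95% interval 1.18 to 2.19, edgeR adjusted p = 0.0441). Leaving out any 1 of the 6 libraries ended the call, with values between 0.53 and 0.80. In vehicle SNAI2 had 18 counts in 3 libraries with RCOR1 siRNA and 12 with control siRNA, which is too few to show a difference of that size (log2 fold change 0.49, 95% interval -0.65 to 1.63). HOXB13 averaged 313 ± 27.8 CPM with RCOR1 siRNA and 409 ± 43.1 CPM with control siRNA under R1881, which is -0.39 ± 0.10 in log2 (edgeR adjusted p = 0.0226). Its call was lost without replicate 2 or 3 of RCOR1 siRNA with R1881 or replicate 1 or 3 of control siRNA with R1881, at -0.29 to -0.43, and under both other scalings. In vehicle its value was -0.16 (95% interval -0.38 to 0.06).

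FOXA1 averaged 478 ± 22.3 CPM with RCOR1 siRNA and 547 ± 10.1 CPM with control siRNA under R1881, which is -0.19 ± 0.06 in log2 (edgeR adjusted p = 0.0357). That call was lost by DESeq2 (adjusted p = 0.071), without any 1 of the 6 libraries and under both other scalings. GRHL2 averaged 456.5 ± 13.0 CPM with RCOR1 siRNA and 504.5 ± 4.38 CPM with control siRNA under R1881. These groups did not overlap, but the log2 fold change of -0.14 (95% interval -0.28 to -0.01) was not called (edgeR adjusted p = 0.16). GATA2 was not called in either treatment, with 95% intervals of -0.18 to 0.24 under R1881 and -0.28 to 0.14 in vehicle. In vehicle the intervals were -0.17 to 0.07 for FOXA1 and -0.07 to 0.20 for GRHL2.

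Whether the response to R1881 itself differed between arms was tested as an interaction, the log2 response with a targeting siRNA minus that with control siRNA. By edgeR, 0 of 6 members passed for UPF1 siRNA, where 2.72% of all tested genes did, and 0 of 6 for RCOR1 siRNA, where 0.767% did. At an unadjusted p below 0.05 the counts were 2 members for UPF1 siRNA and 1 for RCOR1 siRNA, but the share of all genes at that threshold was not computed. The shares above are at another threshold and are no background for these counts. DESeq2 called 0 members in both. The members nearest to the threshold were GRHL2 and GATA2 with UPF1 siRNA. The rise of GRHL2 was smaller with UPF1 siRNA by -0.31 ± 0.09 (edgeR adjusted p = 0.0747), and the fall of GATA2 was smaller by 0.31 ± 0.14 (edgeR adjusted p = 0.233). Without replicate 3 of UPF1 siRNA with vehicle the GRHL2 interaction was -0.37 and was called (edgeR adjusted p = 0.0294). Without the 2 libraries that stood apart the UPF1 siRNA interactions were -0.36 for GRHL2, 0.23 for GATA2, -0.31 for HOXB13, -0.22 for SPDEF, -0.08 for FOXA1 and 0.93 for SNAI2. For RCOR1 siRNA the GRHL2 interaction was -0.21 ± 0.09 (edgeR adjusted p = 0.428). For HOXB13 the interaction was -0.20 with UPF1 siRNA (95% interval -0.51 to 0.11, edgeR adjusted p = 0.467). With RCOR1 siRNA it was -0.23 (95% interval -0.54 to 0.08, edgeR adjusted p = 0.659). For SPDEF the interaction was -0.015 with UPF1 siRNA (95% interval -0.41 to 0.38) and -0.32 with RCOR1 siRNA (95% interval -0.71 to 0.07). SPDEF rose 5.86-fold with UPF1 siRNA, 4.75-fold with RCOR1 siRNA and 5.92-fold with control siRNA. Its mean level was lower with either targeting siRNA in both treatments. With RCOR1 siRNA in vehicle that call was narrow (edgeR adjusted p = 0.0465) and was lost in several alternatives.

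An adjustment for GC content, chosen after the spread within groups was seen, bears on these interactions. HOXB13, GATA2 and SPDEF deviated together from their group means, with a within-group r of 0.905 for HOXB13 and SPDEF, 0.827 for GATA2 and SPDEF and 0.795 for HOXB13 and GATA2 (n = 18 libraries, a description with no test). The same 3 deviated opposite to MALAT1, with r of -0.867 for HOXB13, -0.841 for SPDEF and -0.778 for GATA2. They also deviated opposite to the median of low-GC genes (GC content below 40%), with r of -0.871, -0.876 and -0.898 in the same order. FOXA1 was weaker in this (r = -0.501 with MALAT1), as were GRHL2 (-0.204) and SNAI2 (0.0899). The GC content of the longest transcript was 64.6% for SPDEF, 59.7% for GATA2, 57.3% for HOXB13, 51.3% for FOXA1, 49.8% for GRHL2 and 41.4% for SNAI2, so that the 3 factors that moved together were those with the highest GC content. Values without replicates 1 and 2 of UPF1 siRNA with R1881 rest on replicate 3. Its low-GC median lay 0.53 above the group mean in log2, the largest such deviation of the 18 libraries. It was the lowest library of its group for HOXB13, GATA2 and SPDEF. With offsets that remove the trend of each library with GC content, the UPF1 siRNA interactions were -0.39 for GRHL2, 0.22 for GATA2 and -0.31 for HOXB13, and edgeR called all 3 (adjusted p = 0.00979, 0.0433 and 0.00985). The offsets also raised the share of all tested genes called in that interaction to 11.2%, or 1702 genes, against 419 genes without them. SPDEF with UPF1 siRNA was -0.66 under R1881 and -0.52 in vehicle with these offsets, and with RCOR1 siRNA -0.59 and -0.38.

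**Figure D4:**
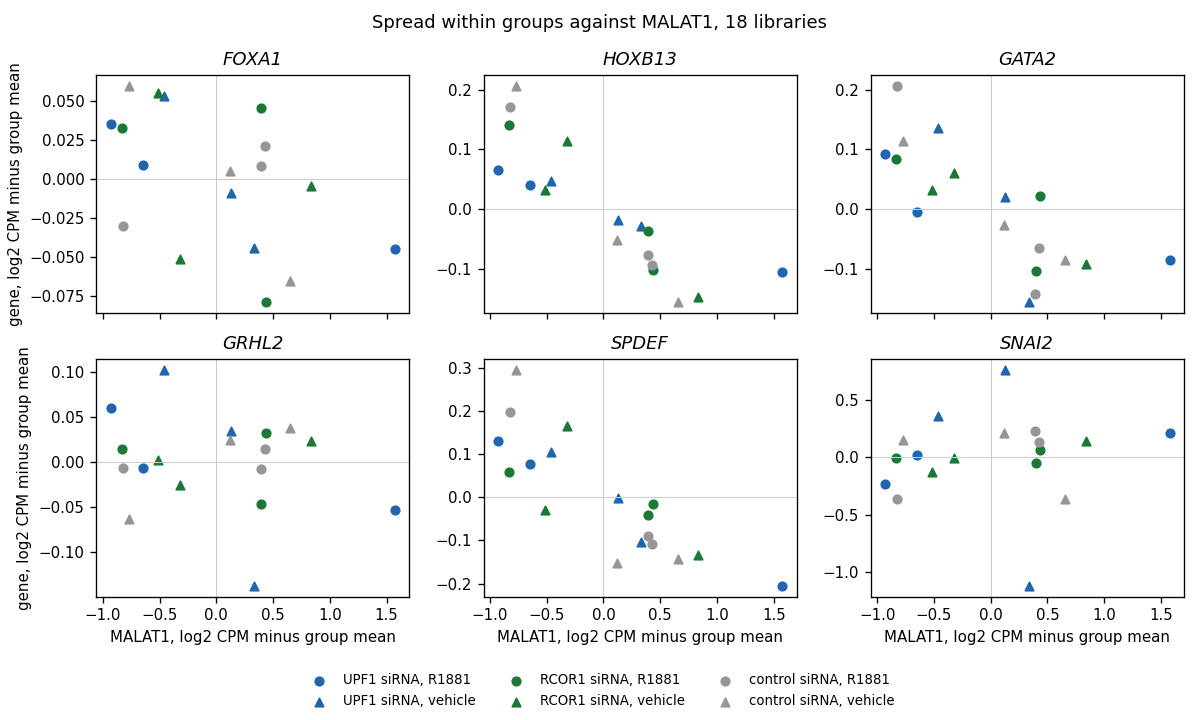
Deviation of each factor from its group mean (vertical axis, log2 CPM) against that of MALAT1 (horizontal axis, log2 CPM) in the 18 libraries; circles are R1881, triangles vehicle, and colours the siRNA. Points of HOXB13, GATA2 and SPDEF run from upper left to lower right, with r between -0.778 and -0.867, while those of GRHL2 and SNAI2 show no such run.

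Of 25 relatives of the 6 factors, 13 were expressed highly enough to be tested. FOXA2 had no count, and FOXA3 and GATA3 averaged 0.0037 and 0.012 CPM over the 18 libraries. The neighbours of HOXB13 in the HOXB cluster were low too, with HOXB2, HOXB4, HOXB7 and HOXB8 at 0.023 to 0.243 CPM and not tested. Under R1881, 1 relative rose and 7 fell with UPF1 siRNA, 2 rose and 5 fell with RCOR1 siRNA, and 3 rose and 3 fell with control siRNA. Of all tested genes, 41.6%, 31.2% and 37.7% were called in these arms. In the control arm the ETS factors went both ways, with ELF5 at -0.91 and EHF at 0.84, while HOXC13 was at -0.88 and GRHL1, a paralog of GRHL2, at 0.74 (edgeR adjusted p = 0.00139, 0.0108, 0.000218 and 5.58e-05). In the RCOR1 interaction HOXB9 (-1.28) and ELF3 (-0.91) were called (edgeR adjusted p = 0.0101 and 0.0276).

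Among 27 tested transcription factors that act in or beside this network in prostate epithelium, R1881 raised 7 and lowered 13 with UPF1 siRNA, raised 7 and lowered 7 with RCOR1 siRNA, and raised 7 and lowered 10 with control siRNA. The shares of all tested genes called were 41.6%, 31.2% and 37.7%. The median log2 fold change was -0.36, -0.02 and -0.16 in these arms, against -0.0075, 0.024 and 0.022 over all genes. The runt-domain factor RUNX1 and the Krüppel-like factor KLF5 were among the largest in the control arm, at 3.64 ± 0.26 and 1.97 ± 0.16, and the nuclear receptor HNF4G was at -1.93 ± 0.43 (edgeR adjusted p = 1.25e-08, 5.85e-08 and 0.003). RUNX1 was at 13.0 CPM with R1881 and 1.09 CPM with vehicle in the control arm, and its rise was smaller with UPF1 siRNA, by -1.95 (edgeR adjusted p = 0.0113 for the interaction). With UPF1 siRNA under R1881, 4 of these factors were higher and 9 lower than with control siRNA, and in vehicle 4 were higher and 7 lower. With RCOR1 siRNA 3 were higher and 9 lower under R1881, and 2 were higher and 6 lower in vehicle, with NFIB lower in both (-0.99 and -1.10). Under R1881, 33.3% of all tested genes were called with UPF1 siRNA and 12.4% with RCOR1 siRNA. In vehicle these shares were 34.6% and 11.5%.

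The rise of SNAI2 was set beside genes of the epithelial and mesenchymal states. Of 14 other transition factors and their epithelial opponents 9 were tested. Of these, 2 rose and 2 fell with UPF1 siRNA, 2 rose and 3 fell with RCOR1 siRNA, and 2 rose and 3 fell with control siRNA. The shares of all tested genes called in these arms, for this and the next lists, were 41.6%, 31.2% and 37.7%. The splicing regulator ESRP2, an epithelial factor, was at 0.77 ± 0.09 and TWIST1, a mesenchymal one, at 0.81 ± 0.15 in the control arm (edgeR adjusted p = 2.44e-06 and 0.000526). ZEB2 had no count and ZEB1 averaged 0.25 CPM. Of 26 tested epithelial junction and keratin genes 7 rose and 5 fell with UPF1 siRNA, 8 and 4 with RCOR1 siRNA, and 10 and 5 with control siRNA, led in the control arm by KRT19 (2.84), KRT8 (2.21), KRT18 (2.02) and CLDN3 (1.20). Of 16 mesenchymal genes only 6 were tested. Of these, 1 rose and 3 fell with UPF1 siRNA, 1 rose and 3 fell with RCOR1 siRNA, and 2 rose and 3 fell with control siRNA. In the control arm ACTA2 (2.71 ± 0.16) and TAGLN (0.58 ± 0.21) rose, while COL3A1 (-2.66 ± 0.39), FN1 (-1.30 ± 0.09) and COL1A1 (-1.09 ± 0.17) fell. CDH1, named after its values were seen because SNAI2 is known to repress it, averaged 1038 ± 37.1 CPM with R1881 and 1009 ± 39.7 CPM with vehicle in the control arm (difference in log2 0.04, edgeR adjusted p = 0.609).

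**Figure D5:**
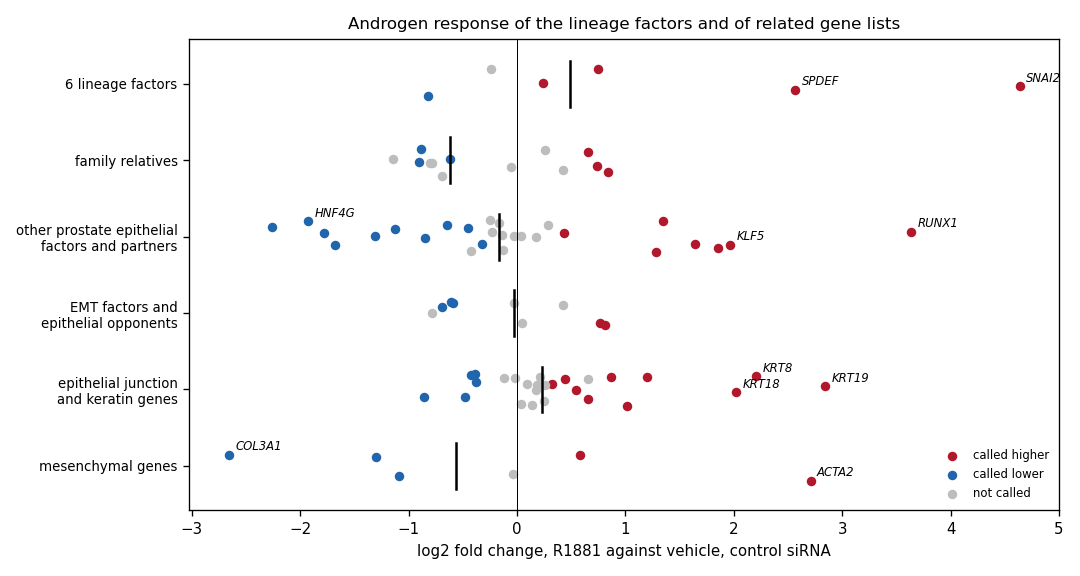
Log2 fold change for R1881 against vehicle with control siRNA of each tested gene, in the 6 lineage factors and 5 lists; red and blue points are called higher and lower by edgeR, grey points are not called, and black bars are medians. SNAI2 and SPDEF lie to the right at 4.64 and 2.57, and each list holds genes on both sides of 0.

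The genes whose profile over the 18 libraries was most like that of each member are given as a description. Likeness was Pearson's r of log2 CPM among 10935 other genes with a mean of at least 5 CPM. For SPDEF they were the amino acid transporter gene SLC43A1 (0.995), SEC14L2 (0.993) and the kinase gene CAMKK2 (0.991), and for GRHL2 NDRG1 (0.976), MICAL1 (0.976) and the growth factor receptor gene IGF1R (0.973). For SNAI2 they were LAMC1 (0.984), RAB3B (0.984) and TUBA3D (0.983), and for GATA2, which fell, COL18A1 (0.98), BAHCC1 (0.974) and CDC42EP4 (0.973). FOXA1 (DPM3 at 0.948, PITRM1 at 0.938 and PCYT2 at 0.935) and HOXB13 (HSPB1 at 0.948, AGRN at 0.943 and PHF12 at 0.939) had less close matches. All these genes share the same 18 libraries and the contrast of R1881 with vehicle within them. Between members, the same measure was highest for GRHL2 and SPDEF (0.948) and lowest for GATA2 and SNAI2 (-0.852).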

How the data were processed

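The authors deposited raw counts of reads for each gene and library, without normalization. Per the submitters' processing notes, the tools were bcl2fastq 2.20, STAR 2.7.9a and featureCounts (Subread 1.6.4) with build GRCh38.p7. Annotation release, strand setting and read filters: not given in the sources used here. The 18 libraries (10299607 to 17338235 counts) were grouped by siRNA and treatment from the labels. Counts were analysed with edgeR 4.0.16 in R 4.3.3: filterByExpr by group, TMM, 1 mean per group, quasi-likelihood F tests of 9 contrasts and Benjamini-Hochberg adjustment over 15390 genes. The SE was computed from the size of the log2 fold change and its F value, and 95% intervals use the t distribution. The script was tested on simulated data. Members, lists and motifs were chosen with earlier results of these data known. From each list, up to 4 called genes per contrast with the largest change could be named, and 3 genes per member for likeness. A gene that this rule names is not reported here. Alternatives were DESeq2 1.42.0, other scalings, no filter on low counts, fits to fewer groups, left-out libraries and GC-adjusted offsets, the last chosen after seeing the data. P-values set a difference between group means against the spread between these libraries. They do not cover other siRNA pools or cell lines.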

Additional observations from a re-analysis of the deposited data

How the results depend on the processing

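Of 736 alternative values for the members, 670 stayed on their side of the threshold, 53 lost a call, 12 gained one and 1 reversed. A reversal was counted only where a call was involved. Changes of direction between uncalled values are therefore among the 670. GATA2 with UPF1 siRNA under R1881, for example, lay between -0.18 and 0.058 over left-out libraries. The R1881 responses of GATA2, GRHL2, SPDEF and SNAI2 kept their calls under all alternatives run for them. So did the lower SPDEF with UPF1 siRNA in both treatments and with RCOR1 siRNA under R1881. For SNAI2 this is no added support, as it passed the filter on low counts only through its R1881 libraries. The cause of the changes below was not tested. With library size alone, all genes had a median of -0.10, -0.17 and -0.22 for R1881 in the UPF1, RCOR1 and control arms. The median was 0.12 for UPF1 siRNA under R1881 and 0.15 for the UPF1 siRNA interaction. With upper-quartile scaling it was -0.11 and -0.13 for R1881 in the RCOR1 and control arms, and 0.12 for that interaction. In the main fit these medians lay between -0.0075 and 0.024. No paired analysis was run, because the labels give no replicate numbers that pair libraries across groups. A shift that libraries share across groups was therefore not modelled. In accession order, the median of low-GC genes lay above the group mean in replicate 3 of 6 of 6 groups and below it in replicate 1 of 5 of 6 groups. Fits without replicates 1 and 2 of UPF1 siRNA with R1881 leave 1 library in that group, assumed to vary like the others. At 0 to 6 counts per vehicle library, depth limits SNAI2.

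FOXA1 under R1881 in the control arm was -0.0076 with library size alone (reversed), and without a call 0.21 with no filter, 0.19 with only the contrast's groups and 0.087 with upper-quartile scaling. In the UPF1 arm its call was lost at 0.092 with GC-adjusted offsets, 0.10 with library size alone, 0.21 with no filter, 0.18 with only the contrast's groups and 0.16 with upper-quartile scaling. Without replicates 1 and 2 of UPF1 siRNA with R1881, with 1 library left, the value was 0.12. In the RCOR1 arm GC-adjusted offsets called it at 0.13. FOXA1 with RCOR1 siRNA under R1881 lost its call at -0.19 with DESeq2, -0.11 with library size alone, -0.17 with no filter, -0.16 with only the contrast's groups and -0.14 with upper-quartile scaling. With UPF1 siRNA under R1881 GC-adjusted offsets called it at -0.16. HOXB13 under R1881 in the control arm was called at -0.25 with GC-adjusted offsets, -0.48 with library size alone and -0.39 with upper-quartile scaling. With RCOR1 siRNA under R1881 its call was lost at -0.30 with library size alone, -0.36 with only the contrast's groups and -0.34 with upper-quartile scaling, and in vehicle GC-adjusted offsets called it at -0.19. With UPF1 siRNA in vehicle its call was lost at -0.30 with DESeq2, -0.31 with library size alone, -0.28 with only the contrast's groups and -0.34 with upper-quartile scaling. SPDEF with RCOR1 siRNA in vehicle lost its call at -0.42 with DESeq2, -0.39 with library size alone, -0.41 with only the contrast's groups and -0.39 with upper-quartile scaling. GRHL2 with UPF1 siRNA under R1881 lost its call at -0.20 with library size alone. In the UPF1 interaction GC-adjusted offsets called GATA2 (0.22), GRHL2 (-0.39) and HOXB13 (-0.31), so that 3 members were called in place of 0.

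Members called with RCOR1 siRNA under R1881 numbered 4, but 2 with library size alone, with only the contrast's groups or with upper-quartile scaling. In vehicle the count of 1 became 0 with DESeq2, library size alone, only the contrast's groups or upper-quartile scaling and 2 with GC-adjusted offsets. Genes called for R1881 in the UPF1 arm numbered 6405, and 2924 without replicates 1 and 2 of UPF1 siRNA with R1881, which also left 1904 of 5128 for UPF1 siRNA under R1881 and 60 of 419 in its interaction. That interaction called 639 genes with DESeq2, 1702 with GC-adjusted offsets, 1320 with no filter and 177 with only the groups of the contrast. With RCOR1 siRNA 1907 genes were called under R1881, 3319 with GC-adjusted offsets and 745 with only the contrast's groups. In vehicle they were 1772, 3496 and 744, and in the interaction 118, 484 and 27, with 57 by library size alone and 56 by upper-quartile scaling.

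Leaving out 1 library at a time, FOXA1 under R1881 lay between 0.17 and 0.22 in the UPF1 arm and between 0.19 and 0.26 in the control arm, and with RCOR1 siRNA under R1881 between -0.21 and -0.15. HOXB13 lay between -0.38 and -0.14 for R1881 in the control arm, between -0.46 and -0.29 with RCOR1 siRNA under R1881 and between -0.36 and -0.17 with UPF1 siRNA in vehicle. SNAI2 with RCOR1 siRNA under R1881 lay between 0.53 and 0.80, SPDEF with RCOR1 siRNA in vehicle between -0.51 and -0.26 and the GRHL2 interaction with UPF1 siRNA between -0.37 and -0.24. Members called with RCOR1 siRNA numbered 1 to 2 under R1881 and 0 to 1 in vehicle, and 0 to 1 in the UPF1 interaction. Genes called with RCOR1 siRNA numbered 1092 to 1425 under R1881 and 1118 to 1443 in vehicle, and those in the interactions 50 to 122 for RCOR1 and 185 to 1166 for UPF1 siRNA.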
